A study of Homo sapiens with 9 samples.

Results

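The membrane skeleton of the red blood cell was represented by 8 genes among the 57338 of the expression table: SLC4A1, ANK1, SPTB, EPB41, EPB42, GYPC, DMTN and ADD1. They were picked as a group with their values in the libraries labelled hPRM1 already known, so the difference of that group from the empty vector is described here and no p-value is given for it. RNA was measured in 9 libraries, 3 in each of 3 groups, all labelled as HEK293T cells, a line derived from human embryonic kidney, a label that the RNA of 1 group goes against. By the study's design each group was transfected with a plasmid for enhanced green fluorescent protein (EGFP), alone in the empty vector group or fused to human protamine 1 (hPRM1) or human protamine 2 (hPRM2). Strongly green cells were sorted 3 days after transfection. Protamines are the small basic proteins that take the place of histones in sperm chromatin. The plasmids express transiently, and no label says that the 3 libraries of a group were separate cultures, so that the p-values below measure the spread between libraries, which may be technical.

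The red cell membrane owes its shape and elasticity to a spectrin network on its inner face. Spectrin tetramers meet at short actin filaments and are tied to the lipid bilayer at 2 kinds of site, one built on band 3, ankyrin and protein 4.2 and the other on glycophorin C, protein 4.1 and the adducins. Inherited defects of band 3, ankyrin, spectrin, protein 4.1 or protein 4.2 are known causes of hereditary spherocytosis and elliptocytosis. Several of these proteins also have relatives, encoded by other genes, that serve the same kind of network in cells other than red cells.

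Erythroid genes are commonly regulated by GATA1 and KLF1, whose recognition sequences are the GATA and CACCC motifs, and the sequence before the start of 3 members that hold a GATA motif and of the broadly expressed ADD1 is shown for that reason. Of the 8 genes, SPTB, EPB41, EPB42, GYPC and ADD1 had an entry in the RefSeq promoter table for GRCh38.p14, with 7 entries in all, and SLC4A1, ANK1 and DMTN had none. Capitals mark the GATA motif, searched as AGATA or TGATA followed by A or G on both strands, and the letters are given 5′ to 3′ on the strand of the gene. The stretches are chr14:64879908-64880157 (minus strand) for SPTB, chr1:28886850-28887090 (plus strand) for EPB41, chr15:43221126-43221268 (minus strand) for EPB42 and chr4:2843594-2843843 (plus strand) for ADD1.
SPTB: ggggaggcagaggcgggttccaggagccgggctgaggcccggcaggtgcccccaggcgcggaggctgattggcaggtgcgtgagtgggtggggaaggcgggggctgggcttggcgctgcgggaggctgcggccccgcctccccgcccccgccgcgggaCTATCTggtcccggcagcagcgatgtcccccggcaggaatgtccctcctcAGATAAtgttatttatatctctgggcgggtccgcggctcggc
EPB41: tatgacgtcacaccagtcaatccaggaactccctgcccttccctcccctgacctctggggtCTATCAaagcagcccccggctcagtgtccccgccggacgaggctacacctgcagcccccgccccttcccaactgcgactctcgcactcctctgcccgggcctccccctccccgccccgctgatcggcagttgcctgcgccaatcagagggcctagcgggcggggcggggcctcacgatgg
EPB42: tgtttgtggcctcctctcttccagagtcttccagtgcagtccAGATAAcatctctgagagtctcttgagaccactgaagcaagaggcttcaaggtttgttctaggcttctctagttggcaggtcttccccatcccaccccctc
ADD1: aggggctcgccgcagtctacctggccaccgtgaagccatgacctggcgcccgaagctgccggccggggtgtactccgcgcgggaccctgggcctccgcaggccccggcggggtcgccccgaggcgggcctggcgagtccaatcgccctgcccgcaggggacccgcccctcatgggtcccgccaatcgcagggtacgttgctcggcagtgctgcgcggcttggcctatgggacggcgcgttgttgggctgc
In the 250 bases before the start, SPTB held 2 GATA matches, 92 and 42 bases away, and EPB42 also held 2, at 208 and 61 bases, of which the stretch shown covers the farther one. EPB41 had 1 match at 189 bases, GYPC had 1 at 64 bases, and ADD1 had none. The second entries of SPTB and EPB41 had none either. A GATA match was present in 22.33% of the 35116 promoters of the table, and a CACCC match (CCNCNCCC on either strand) in 53.39%. CACCC matches numbered 3 in SPTB, 6 in EPB41, 3 in EPB42, 2 in GYPC and 0 in ADD1, and none overlapped a GATA match. The matches describe these letters and are not evidence of binding.

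The libraries labelled hPRM1 went against their label. PRM1 was listed at 0 in all 9 libraries, those 3 included, whereas PRM2 was listed at 0 outside the hPRM2 libraries and at 71224, 60050 and 36130 RPKM in them (RPKM, reads scaled to the total of the library and to gene length in kilobases). Of 10 genes typical of HEK293T cells, 8 were at 0 in every library labelled hPRM1, and their summed level there was 0 to 1.65 RPKM against 273 to 348 RPKM with the empty vector and 104 to 195 RPKM with hPRM2. Markers of blood showed the opposite. The summed level of 13 erythroid markers, hemoglobins included, was 2063640 to 2269970 RPKM in the hPRM1-labelled libraries, 36.5 to 70.5 RPKM with the empty vector and 10.4 to 75.4 RPKM with hPRM2. For 14 white blood cell markers the sums were 6350 to 7297, 1.01 to 4.92 and 1.54 to 7.01 RPKM in the same order, and for 8 platelet markers 374 to 671, 29.2 to 61.5 and 26.9 to 57.1 RPKM. None of these 35 markers of blood was at 0 throughout the hPRM1-labelled libraries, while 19 were at 0 in all empty vector libraries and 22 in all hPRM2 libraries. The library names put these 3 libraries in a separate number series from the other 6, so that labelled condition, source of the RNA and preparation cannot be told apart. In a bulk measurement fewer cells of a type and less RNA per cell cannot be told apart either. Estimated reads on genes numbered 7930000 to 10790000 per empty vector library, 4210000 to 5860000 in those labelled hPRM1 and 1270000 to 2650000 with hPRM2. By the longest transcript, HBA2 took an estimated 37.4% to 42.2% of these reads in the hPRM1-labelled libraries and HBB 38.6% to 45.0%. Every other gene there is scaled to a total that includes the hemoglobin reads. hPRM2 library 1 stood apart in its group, with the most reads but only 9652 genes above 0, against 14353 and 15633 in hPRM2 libraries 2 and 3.

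The 8 genes were far from uniform in the empty vector cells. ADD1 alone held 63.8% to 78.4% of their summed RPKM, which was 294 ± 53.6 RPKM (SD, n = 3), whereas EPB42 was at 0. In the hPRM1-labelled libraries the sum was 1144 ± 180 RPKM (SD, n = 3) and ADD1 held 20.6% to 28.0% of it, with GYPC at 44.8% to 51.8% and SLC4A1 at 12.9% to 21.5%. The sum was 140 ± 25.8 RPKM (SD, n = 3) with hPRM2, of which ADD1 held 60.8% to 80.3%. Levels of different genes are compared here per kilobase of gene, although the reads of this 3′ method come from transcript ends, so that a long gene is set lower than a short one with equal transcripts.

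**Figure D1:**
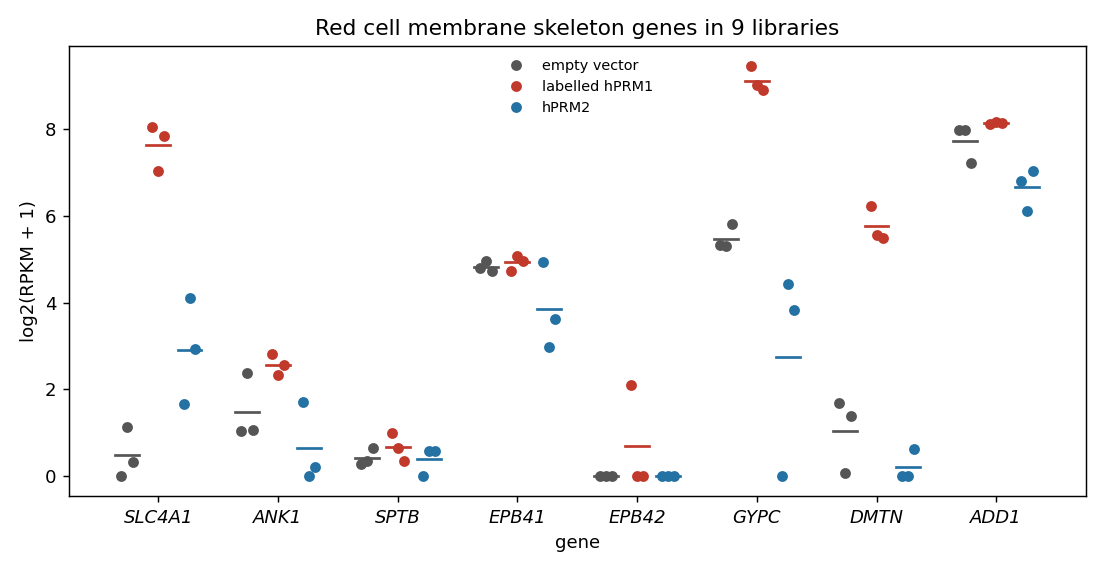
Level of the 8 genes in each library as log2(RPKM + 1), with 1 point per library and a bar at the mean of each group of 3. SLC4A1, GYPC and DMTN are far higher in the hPRM1-labelled libraries. On the deposited scaling shown, EPB41 and ADD1 differ little between those and the empty vector. SPTB is near 0 throughout, and EPB42 is at 0 in all but the first library labelled hPRM1 (3.26 RPKM).

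SLC4A1 (ENSG00000004939, chromosome 17, 44248385 to 44268141, minus strand) encodes band 3, the chloride and bicarbonate exchanger that also anchors the skeleton. Its level was 0, 1.19 and 0.245 RPKM in the 3 empty vector libraries and 263, 131 and 230 RPKM in those labelled hPRM1. The hPRM2 libraries were between, at 2.16, 16.3 and 6.57 RPKM. No library of one group reached into the range of another. The mean was 436 times that of the empty vector in the hPRM1-labelled libraries and 17.5 times with hPRM2, from a base of few reads: by the shortest and the longest transcript, the values stood for 0, 12.0 to 47.8 and 3.13 to 12.5 reads with the empty vector and for 6.78 to 27.0, 24.6 to 97.7 and 12.5 to 49.8 reads with hPRM2. With the lowest value above 0 taken as 1 read they were 0, 3.83 and 1 reads with the empty vector and 2.17, 7.84 and 3.99 reads with hPRM2. These numbers reflect the unknown length used by the authors and not counting error.

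ANK1 (ENSG00000029534, 41653220 to 41896762 on chromosome 8, minus strand) encodes ankyrin-1, which links band 3 to spectrin. It was measured at 1.04, 4.14 and 1.07 RPKM with the empty vector, 6.03, 3.98 and 4.89 RPKM in the hPRM1-labelled libraries and 2.27, 0 and 0.156 RPKM with hPRM2. The groups overlapped, since empty vector library 2 lay above the lowest library labelled hPRM1. Taking the lowest value above 0 as 1 read, the 9 values amounted to 33.0, 141 and 46.0 reads, 141, 66.9 and 102 reads, and 24.0, 0 and 1 reads. The ratio of SLC4A1 to ANK1 was 43.6, 33.0 and 47.0 in the hPRM1-labelled libraries and 0, 0.287 and 0.230 with the empty vector.

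EPB42 (ENSG00000166947, chromosome 15, 43197227 to 43221125, minus strand) encodes protein 4.2, which steadies the bond between band 3 and ankyrin. It was above 0 in a single library, the first labelled hPRM1, at 3.26 RPKM, or about 6.18 to 42.3 reads, and at 0 in the other 8. A value of 0 allows up to 3 reads, counting error alone. By the shortest transcript of EPB42 these come to at most 1.17 RPKM in an empty vector library, 2.20 RPKM in one labelled hPRM1 and 7.27 RPKM with hPRM2. An overlapping gene on the same strand, AC068724.4, shares 9255 bases with it. Among the genes of the band 3 site it alone had no signal in 2 of the 3 hPRM1-labelled libraries.

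SPTB (ENSG00000070182, chromosome 14, 64746283 to 64879907, minus strand) encodes erythroid beta-spectrin, a chain of the network itself. It was low everywhere, at 0.213, 0.269 and 0.553 RPKM with the empty vector, 0.971, 0.570 and 0.274 RPKM in the hPRM1-labelled libraries and 0, 0.482 and 0.477 RPKM with hPRM2. All 3 groups overlapped. It shares 3965 bases with PLEKHG3 on the other strand.

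At the second kind of site, GYPC (ENSG00000136732, chromosome 2, 126655933 to 126696670, plus strand) encodes glycophorins C and D, which hold the skeleton through protein 4.1. It was the most abundant of the 8 in the hPRM1-labelled libraries, at 699, 516 and 478 RPKM, against 39.2, 38.3 and 55.0 RPKM with the empty vector. With hPRM2 it stood at 0, 20.5 and 13.1 RPKM, below every empty vector library. The 0 of hPRM2 library 1 allows 3 reads, which are 0.727 RPKM by the longest transcript and 1.66 RPKM by the shortest, although that library had the most reads of its group. The mean ratio to the empty vector was 12.8 in the hPRM1-labelled libraries and 0.254 with hPRM2.

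EPB41 (ENSG00000159023, chromosome 1, 28887091 to 29120046, plus strand) encodes protein 4.1, which clamps spectrin to actin. It read 26.8, 30.0 and 25.6 RPKM with the empty vector and 25.5, 32.8 and 30.2 RPKM in the hPRM1-labelled libraries, and these groups overlapped. The hPRM2 values were 29.7, 6.83 and 11.3 RPKM, with library 1 within the range of the empty vector and the other 2 below it. TMEM200B on the other strand shares 619 bases with it.

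DMTN (ENSG00000158856, 22048995 to 22082527 on chromosome 8, plus strand) encodes dematin, which bundles actin at the spectrin junctions. It was measured at 2.19, 0.0508 and 1.61 RPKM with the empty vector, 74.0, 46.1 and 44.2 RPKM in the hPRM1-labelled libraries and 0, 0 and 0.540 RPKM with hPRM2. With the lowest value above 0 taken as 1 read these were 40.0, 1 and 40.0 reads, 999, 447 and 533 reads, and 0, 0 and 2 reads. The hPRM1-labelled libraries did not overlap the others, and their mean was 42.7 times that of the empty vector.

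ADD1 (ENSG00000087274, chromosome 4, 2843857 to 2930076, plus strand) encodes alpha-adducin, which caps actin and recruits spectrin in many cell types. Its levels were 253, 254 and 148 RPKM with the empty vector, 277, 285 and 280 RPKM in the hPRM1-labelled libraries and 111, 68.3 and 131 RPKM with hPRM2. The 3 groups did not overlap as deposited. The mean was then 1.29 times that of the empty vector in the hPRM1-labelled libraries, and 0.475 times with hPRM2. After median-of-ratios and quantile scaling, ADD1 was 2.58 and 2.24 higher in the hPRM1-labelled libraries on the log2 scale. EPB41 kept a similar proportion to it, 0.132 ± 0.035 of ADD1 with the empty vector and 0.105 ± 0.012 in the hPRM1-labelled libraries (SD, n = 3 each), whereas GYPC went from 0.151 to 0.371 of ADD1 to between 1.71 and 2.52.

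In the order of levels in the hPRM1-labelled libraries, GYPC was above ADD1, SLC4A1, DMTN, EPB41, ANK1, EPB42 and SPTB by their means, and EPB42 and SPTB overlapped. ADD1 and SLC4A1 were separated (277 to 285 against 131 to 263 RPKM), as were SLC4A1 and DMTN, and DMTN and EPB41 (44.2 to 74.0 against 25.5 to 32.8 RPKM). With the empty vector the order was ADD1, GYPC, EPB41, ANK1, DMTN, SLC4A1, SPTB and EPB42. The neighbours ANK1 and DMTN, DMTN and SLC4A1, and SLC4A1 and SPTB overlapped there. With hPRM2 it was ADD1, EPB41, GYPC, SLC4A1, ANK1, SPTB, DMTN and EPB42, and the ranges of every neighbouring pair below ADD1 met.

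The values of the 6 genes with at least 1 RPKM in at least 3 of the 6 libraries, which left out SPTB and EPB42, were then set against all 13588 genes that passed the same filter, on the scale log2(RPKM + 1), where the change of low genes is understated. The hPRM1-labelled libraries minus the empty vector gave 7.17 for SLC4A1, 1.08 for ANK1, 0.10 for EPB41, 3.65 for GYPC, 4.72 for DMTN and 0.40 for ADD1. The median of the 6 was 2.36, and the median of all genes tested was -1.72. Measured from that median the differences were 8.88, 2.80, 1.81, 5.36, 6.44 and 2.12 in the same order. The thresholds applied to all genes (limma, adjusted p at most 0.05 and at least 2-fold) were passed as higher by 4 of the 6, SLC4A1, ANK1, GYPC and DMTN, and as lower by 0. Among all genes 75.4% passed them, 12.9% as higher. The groups did not overlap, with the hPRM1-labelled libraries higher, for SLC4A1, GYPC, DMTN and ADD1, and this held for 14.5% of all genes, against 66.4% with those libraries lower. Since the genes were chosen on this difference, these counts are a description from which nothing is read, and ANK1 lost its call under 11 of 15 alternatives. After median-of-ratios or quantile scaling, under which the median of all genes was 0.06 and -0.30, all 6 were called higher, EPB41 at 2.20 and 1.78 and ADD1 at 2.58 and 2.24. Over all genes 7958 of 13416 and 7863 of 13588 were called in either direction under these scalings. The share of all genes called higher was not counted there, so nothing is read from the 6 calls.

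**Figure D2:**
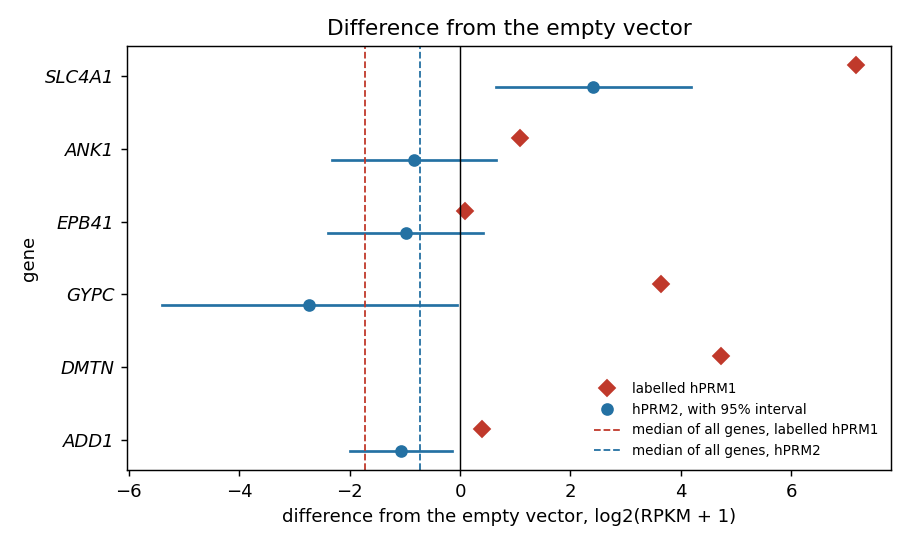
Difference from the empty vector on the log2(RPKM + 1) scale for the 6 genes tested in at least 1 comparison, with red diamonds for the hPRM1-labelled libraries, which have no interval because the genes were chosen on that difference, and blue points with 95% intervals for hPRM2. All 6 red diamonds lie to the right of the median of all genes for those libraries (dashed red line, -1.72), and with hPRM2 only SLC4A1 lies to the right of 0.

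The hPRM2 libraries, in which the markers of HEK293T cells were present, were tested against the same 3 empty vector libraries, so that the comparison is not independent of the one in which the genes were chosen. Of the 8 genes, 5 passed the filter, and 0 were called by limma and 0 by the per-gene test of the study's methods, while 3 had an unadjusted limma p under 0.05. Of the 13126 genes tested 2.74% were called, 1.36% as higher, and 3351 had an unadjusted limma p under 0.05. SLC4A1 was 2.42 higher than with the empty vector on the log2(RPKM + 1) scale (SE 0.75, 95% interval 0.65 to 4.18, limma adjusted p = 0.117, unadjusted 0.0143), and all 3 hPRM2 libraries exceeded all 3 empty vector libraries. GYPC gave -2.73 (SE 1.13, interval -5.40 to -0.06, adjusted p = 0.190, unadjusted 0.0461) and ADD1 -1.08 (SE 0.39, interval -2.0 to -0.15, adjusted p = 0.155, unadjusted 0.0282), by limma, with all 3 hPRM2 libraries below all 3 empty vector libraries for both. EPB41 at -0.99 (interval -2.39 to 0.41, adjusted p = 0.325, limma) and ANK1 at -0.84 (interval -2.33 to 0.64, adjusted p = 0.415, limma) overlapped between the groups.

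Non-overlapping groups, seen for SLC4A1 as higher and for GYPC and ADD1 as lower, occurred with hPRM2 for 6.01% of all genes as higher and 29.9% as lower. The median of the 5 genes was -0.99 and that of all genes -0.72. Relative to the latter, ADD1 stood at -0.35, EPB41 at -0.27, ANK1 at -0.12, GYPC at -2.01 and SLC4A1 at 3.14. The calls depended on hPRM2 library 1, and also on the scaling and the fit, as given below. Without library 1, SLC4A1 was 3.04 (limma adjusted p = 0.0315), GYPC -1.35 (0.0492) and EPB41 -1.54 (0.0419), and these 3 genes were called. Calls over all genes rose as well, from 359 of 13126 to 2257 of 12825. Of the 13 erythroid markers, 8 were at 0 in all 3 hPRM2 libraries (HBB, HBD, HBM, AHSP, ALAS2, CA1, HEMGN and KLF1), HBA1 and HBA2 were above 0 only in library 3, at 4.90 and 2.36 RPKM, and SLC25A37, SELENBP1 and TRIM58 were above 0 in all 3. Their part in the level of SLC4A1 was not tested. DMTN, tested with no filter on low values, was -0.84 (SE 0.56, limma adjusted p = 0.453) and SPTB -0.04 (SE 0.30, adjusted p = 0.933).

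SLC4A1, EPB41, ANK1 and ADD1 were next set against relatives, other genes of their families. The proteins of these relatives need not do the same work. The share that a gene holds in the summed RPKM of its family does not change when a library is scaled by a common factor. This measure was chosen after the values had been seen. SLC4A1 held 0 to 0.474% of the sum of SLC4A1, SLC4A2, SLC4A3 and SLC4A7 with the empty vector, 53.9% to 76.4% in the hPRM1-labelled libraries and 0.923% to 15.4% with hPRM2. The relatives summed to 214 to 258 RPKM, 81.3 to 112 RPKM and 89.9 to 232 RPKM in the same order. The lower sum of the relatives depends on the deposited scaling: in the hPRM1-labelled libraries SLC4A2 and SLC4A7 differed from the empty vector by -1.69 and -0.80 on the log2 scale as deposited, by 0.46 and 1.36 after median-of-ratios scaling and by 0.05 and 0.96 after quantile scaling.

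For EPB41 the share was 18.8% to 29.2% with the empty vector and 80.1% to 82.8% in the hPRM1-labelled libraries. Its relatives EPB41L1, EPB41L2, EPB41L3 and EPB41L5 summed to 62.1 to 129 RPKM and 6.35 to 6.82 RPKM in those groups. EPB41L2, the most abundant of them, was at 92.8, 90.9 and 47.3 RPKM with the empty vector and at 5.41, 5.88 and 3.62 RPKM in the hPRM1-labelled libraries. With hPRM2 the share of EPB41 was 7.55% to 24.7%, which overlapped the empty vector.

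ANK1 held 5.56% to 20.1% of the sum with ANK2 and ANK3 in the empty vector libraries, 32.3% to 67.9% in those labelled hPRM1 and 0 to 26.2% with hPRM2. ADD1 dominated its family in all groups, at 86.1% to 89.1%, 87.1% to 93.1% and 85.5% to 89.7% of the sum with ADD2 and ADD3, and these ranges overlapped.

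Of 18 relatives 13 were tested in the hPRM1-labelled libraries. Of these 8 were called lower, beside 62.5% of all genes, and 1 (AVIL, named after its value was seen) higher, beside 12.9%. The other 4 were not called, and the median was -1.68 beside -1.72 for all genes. Among those called lower were EPB41L2 (-3.67), EPB41L1 (-2.76), EPB41L3 (-2.31), SLC4A2 (-1.69), SPTBN1 (-1.68), SPTAN1 (-1.46), the ubiquitous alpha-spectrin, and ANK3 (-1.28). No p-values are given for this comparison, since the list was chosen with earlier results of these data known. TMOD3, a tropomodulin, gave 0.69 and missed the 2-fold threshold, and ANK2 was at 0 in the hPRM1-labelled libraries and at 4.39, 1.54 and 0.775 RPKM with the empty vector. Of 14 relatives tested after median-of-ratios scaling 5 were called higher and 3 lower, and of 13 after quantile scaling 3 in each direction. The share of all genes called in each direction was not counted there, so nothing is read from these counts. The medians of the relatives were then 0.53 and 0.05, beside 0.06 and -0.30 for all genes. With hPRM2, 0 of 12 tested relatives were called by limma, beside 2.74% of all genes. An unadjusted limma p under 0.05 was found for 2 relatives, beside 3351 of all 13126 genes. The median of the relatives was -0.93 beside -0.72 for all genes, with SPTAN1 at 1.03 (adjusted p = 0.143, limma).

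Of 24 other genes of the red cell membrane and skeleton, 20 were tested in the hPRM1-labelled libraries. Of these 2 were called higher (ACTB and KCNN4), beside 12.9% of all genes, and 5 lower (ADD2, TPM1, TPM3, CD59 and XPO7), beside 62.5%. The other 13 were not called, and the median was -0.09 beside -1.72 for all genes. ACTB, KCNN4, TPM1, TPM3 and CD59 are named because of their calls. After median-of-ratios scaling 16 of 21 were higher and 1 lower, and after quantile scaling 14 and 2 of 20. The share of all genes called higher was not counted there, so nothing is read from these counts. Over all genes 7958 of 13416 and 7863 of 13588 were called in either direction under these scalings. The medians of the list were then 1.82 and 1.45, beside 0.06 and -0.30 for all genes. ADD2, the adducin partner of ADD1 in red cells, was at 5.29, 6.81 and 6.14 RPKM with the empty vector and 0.569, 0.562 and 0.481 RPKM in the hPRM1-labelled libraries, while ADD3, the broadly expressed partner, was at 25.5, 27.6 and 17.8 RPKM and 40.5, 23.9 and 20.2 RPKM. MPP1, the p55 protein that joins GYPC and EPB41, was at 23.4, 30.1 and 35.4 RPKM and 56.7, 46.9 and 65.4 RPKM. The actin cap TMOD1, stomatin (STOM) and the glucose transporter SLC2A1 were not called, at 0.61, 0.25 and -0.21 on the log2 scale.

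RHAG, of the Rh complex, was at 0.0999, 0 and 0.112 RPKM in the hPRM1-labelled libraries and at 0 elsewhere. With hPRM2, 0 of the 18 tested genes of this list were called by limma, beside 2.74% of all genes. An unadjusted limma p under 0.05 was found for 1 gene of the list, beside 3351 of all 13126. The median of the list was -0.85, beside -0.72 for all genes. XPO7 gave -1.51 there (limma adjusted p = 0.160), and SLC2A1 was spread over 135, 6.58 and 11 RPKM and STOM over 43.0, 5.27 and 7.62 RPKM, with hPRM2 library 1 the highest for both.

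Across the 9 libraries, the genes whose log2(RPKM + 1) ran most like that of SLC4A1 among 11477 genes were GBP4 (Pearson r = 0.9914), NLRP12 (0.9866), LAT2 (0.9854), C5AR2 (0.9829) and RINL (0.975), and 442 genes had a correlation of 0.9 or more. All 9 points share the contrast of 3 libraries with 6, which alone gives a high correlation to any gene with that contrast, so these values describe only. GBP4 was at 36.8 to 44.5 RPKM in the hPRM1-labelled libraries, 0.215 to 0.438 RPKM with the empty vector and 1.21 to 6.0 RPKM with hPRM2, the same order of groups as SLC4A1. For ADD1 the closest were IFFO1 (0.9816), ARPC5 (0.9683), FOXN3 (0.9431), UBE2B (0.9389) and XPO6 (0.9379), and 43 genes had 0.9 or more.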

How the data were processed

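Total RNA of 9 libraries was prepared with a 3′ mRNA kit. The authors counted reads on genes, left out mitochondrial genes and divided by library total and gene length, and the deposited table holds these RPKM values for 57338 genes, without counts. The submitters' processing notes name FastQC, cutadapt, STAR and Salmon with the build hg38, and versions are not given in the sources used here. All columns were assigned by library name, and 0 further columns of values were left unused. The 8 genes, the lists of other genes and the marker lists were chosen with earlier results of these data known.

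Each comparison took its 6 libraries, kept the genes that reached 1 RPKM in 3 or more of them, and was fitted on log2(RPKM + 1) with limma 3.58.1 in R 4.3.3 (lmFit, then eBayes with its trend and robust options). P-values were adjusted by Benjamini-Hochberg across every gene kept. Genes were called at adjusted p up to 0.05 where the difference was 2-fold or more. The fit was tested on simulated data. Summaries used Python 3.11.15 and pandas 2.3.3. Reads on genes were estimated from the lowest RPKM steps of 13863 genes with a single transcript between 600 and 20000 bases in GENCODE 29, with 250 bases subtracted, and read numbers and the limit of 3 reads cover counting error only, since reads without molecular identifiers are not independent molecules. The limit was 0.278 to 0.378 CPM (reads scaled to the library total) with the empty vector, 0.512 to 0.712 in the hPRM1-labelled libraries and 1.13 to 2.36 with hPRM2. Gene positions are those of GENCODE 29, and promoter sequences are from RefSeq.

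Named are the 8 genes, 10 set genes of each of 2 lists (other red cell membrane genes, and relatives), any gene of these lists called with hPRM2, and the 5 genes most like SLC4A1 and ADD1 by Pearson correlation over 9 libraries, among those with a mean of at least 5 RPKM in a group. Clone names and genes that vary between people were left out of the latter. Some genes of the 2 lists are not reported here. Pseudocounts, filters, scaling, a fit of all 9 libraries, the replicate number as a block, the per-gene test of the study's methods and each left-out library were tried as alternatives.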

Additional observations from a re-analysis of the deposited data

How the results depend on the processing

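With hPRM2, 0 of the 8 genes were called, and the count was 1 after quantile normalization (SLC4A1) and 2 in a fit of all 9 libraries (SLC4A1, limma adjusted p = 0.0358, and ADD1, 0.0498). Over all genes 412 of 13126 were called after quantile normalization. Leaving out each library gave 0 to 3 of the 8 genes, with 3 only without hPRM2 library 1. SLC4A1 stayed positive under its 15 alternatives, from 1.15 to 4.15, with adjusted p from 0.0315 to 0.452. Over all genes the count with hPRM2 went from 359 to 2125 in the fit of all 9 libraries, 2257 without hPRM2 library 1, 10 to 41 without any other library, 89 with no filter, 167 with a minimum of 10, 57 with the replicate block and 9 with the per-gene test of the methods, and 3351 genes had an unadjusted p under 0.05. For the hPRM1-labelled libraries, 4 genes were called, and 1 with the per-gene test. Leaving out each library gave 3 to 4, beside 7422 (of 10512) to 9142 (of 12365) over all genes tested. Of 15 alternatives, ANK1 lost its call in 11, among them each left-out library other than empty vector library 2. All-gene counts there were 10241, and 4514 with the per-gene test. The median of all genes with hPRM2 was -0.26 after median-of-ratios rescaling and -0.16 after quantile normalization. The cause of these changes was not tested.

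Samples with the same replicate number had correlations of their deviations of -0.01, 0.04 and -0.03 with the hPRM1-labelled libraries and -0.02, 0.09 and -0.08 with the hPRM2 libraries. Samples with different numbers ranged from -0.04 to 0.05 and from -0.12 to 0.11. These values show no pairing by number, but with 3 libraries in each group they cannot exclude it. With the replicate block 3 genes were called in the hPRM1-labelled libraries and 0 with hPRM2. Few reads limit SLC4A1, SPTB, EPB42 and DMTN outside the hPRM1-labelled libraries.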
